A study of Mus musculus with 11 samples.

Results

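Thy1, Cadps, Cadps2, Rapgef4 and Rapgef2 are the 5 genes described here, out of 22609 genes counted in mouse libraries labelled as cerebellar hemisphere. They were picked by name, with knockout against control differences in these same libraries already known: Thy1, Cadps and Rapgef4 as genes thought to differ from control in every mutant, and Cadps2 and Rapgef2 as the family relatives of Cadps and Rapgef4. The differences from control are therefore given below as a description with no test. Tests are kept for one knockout against another, where the control libraries do not enter the difference but share in the fitted spread. The knockout libraries were part of what the genes were picked on, so these tests are not independent of the choice. The starting description did not hold for Rapgef4, which was lower than control in 2 of the 3 knockouts and close to the control level in the other.

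Polyadenylated RNA was sequenced in bulk from 11 untreated littermate mice. The 3 control mice are written NfascFx/Fx;AnkGFx/Fx in the series' design, with both genes floxed and no Cre, while the paper's methods also allow controls with 1 of the floxed genes. The 3 NFKO mice were Pcp2-Cre;NfascFx/Fx, the 2 AnkGKO mice were Pcp2-Cre;AnkGFx/Fx and the 3 DKO mice were Pcp2-Cre;NfascFx/Fx;AnkGFx/Fx. The Pcp2 promoter drives Cre mainly in Purkinje cells, so in a whole piece of cerebellum the deletion is meant for a small share of the cells. The labels give the age as postnatal day 30 in 1 place and 32 in another, the sex as mixed, and the strain as C57BL/6J or as a mixed C57BL/6J;129 background. Nfasc encodes the adhesion molecule neurofascin, and Ank3 encodes the scaffold ankyrin G, both of them built into the axon initial segment.

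Thy1 is a small glycoprotein held on the outer face of the neuronal membrane by a lipid anchor, and it is also found on T cells and some fibroblasts. Cadps and Cadps2 are the CAPS proteins, which prepare secretory vesicles, above all the dense-core vesicles that carry peptides and monoamines, for calcium-triggered release. In the cerebellum Cadps2 is known from granule cells, where it acts in the release of neurotrophins. Rapgef4, also called Epac2, is a guanine nucleotide exchange factor that is opened by cyclic AMP and switches on the small GTPase Rap, while Rapgef2 switches on Rap without being a classical cyclic AMP target of the Epac type. Rap proteins act on adhesion, synapse structure and secretion.

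On the GRCm39 build, the one named in the submitters' processing notes, Thy1 (ENSMUSG00000032011.7) lies at chr9:43954332-43959880 on the plus strand. Cadps (ENSMUSG00000054423.17) spans chr14:9646283-10097665 on the plus strand and Cadps2 (ENSMUSG00000017978.21) spans chr6:23262103-23839546 on the minus strand. Rapgef4 (ENSMUSG00000049044.18) is at chr2:71811328-72089838 on the plus strand, and Rapgef2 (ENSMUSG00000062232.16) at chr3:78969818-79194650 on the minus strand. The merged exons of each protein-coding gene covered 4483 bp for Thy1, 17348 bp for Cadps, 10352 bp for Cadps2, 11251 bp for Rapgef4 and 15582 bp for Rapgef2. Of the 50-base words in their transcripts, 0.0638% of Thy1, none of Cadps, 0.0931% of Cadps2, 3.19% of Rapgef4 and 2.22% of Rapgef2 also occurred in another gene. The antisense transcripts Rapgef4os2 and 6430573P05Rik share 452 and 304 exon bases with Rapgef4 and Rapgef2. The libraries were strand-specific, but the strand setting of the counting is not given in the sources used here.

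The 250 bases before the RefSeq start site of Cadps and of Rapgef4 are shown on the GRCm38.p6 build, because one of these genes was lower in each knockout and the other in AnkGKO and DKO, and their windows differ in make-up. Capitals mark the CCAAT box (CCAAT) or the GC box (GGGCGG) on either strand.
Cadps, chr14:12823080-12823329, minus strand: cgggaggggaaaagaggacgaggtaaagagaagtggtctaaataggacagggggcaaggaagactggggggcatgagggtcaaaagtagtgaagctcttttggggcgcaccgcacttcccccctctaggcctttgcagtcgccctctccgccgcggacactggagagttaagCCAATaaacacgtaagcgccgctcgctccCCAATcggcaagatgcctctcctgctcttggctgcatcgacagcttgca
Rapgef4, chr2:71980965-71981214, plus strand: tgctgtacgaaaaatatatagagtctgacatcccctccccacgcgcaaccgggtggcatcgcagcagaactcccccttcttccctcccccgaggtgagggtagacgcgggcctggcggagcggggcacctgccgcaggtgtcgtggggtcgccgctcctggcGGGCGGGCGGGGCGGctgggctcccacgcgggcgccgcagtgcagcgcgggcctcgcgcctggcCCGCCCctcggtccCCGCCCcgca
The Cadps window holds 2 CCAAT boxes and no GC box. The Rapgef4 window holds 5 GC boxes, some of them overlapping, and no CCAAT box. Over 32851 promoter windows of this length, 33.8% held CCAAT and 32.7% held GGGCGG. GC content was 58.0% for Cadps, 73.6% for Rapgef4, 78.0% for Cadps2 and 47.2% for Rapgef2, against a median of 52.4%. The cyclic AMP response element (TGACGTCA, in 1.55% of the windows), its first 5 letters TGACG (17.8%) and TATAAA (12.4%) were in none of the 4 windows, and the E box (CANNTG, 66.2%) occurred 2 times in each of Rapgef4 and Cadps2. Sequences were matched for 4 of the 5 genes, the other being Thy1. These are matches of letters in a fixed window and not measured binding sites.

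The count table gave 38890851 to 55822361 reads on genes per library, so that 3 counts, the floor used here, stood for 0.0537 to 0.0771 CPM, reads scaled to the size of the library by edgeR's TMM method. The 5 genes had between 21.5 and 1901 CPM in every library, far above this floor. Of the targeted genes, Ank3 fell in AnkGKO and DKO, at 178 ± 31.4 (SD, n = 2) and 173 ± 12.7 (SD, n = 3) against 363 ± 11.1 CPM (SD, n = 3) in the controls (adjusted p = 0.00108 and 0.000461, edgeR quasi-likelihood test), and Nfasc did not pass the test in NFKO (653 ± 41.8 against 690 ± 28.4 CPM; log2 fold change -0.08, adjusted p = 0.969, edgeR quasi-likelihood test) or in DKO (589 ± 26.5 CPM; -0.23, adjusted p = 0.619), with 835 ± 167 CPM in AnkGKO. Pcp2 and Gabra6, defining markers of the labelled tissue, were scarce in most libraries: Pcp2, expressed in Purkinje cells, had 26.3 CPM in control 1 and 28.3 CPM in NFKO 1 and lay between 0.0929 and 2.14 CPM in the other 9. The 9 Purkinje cell list genes in the table, several of them also expressed in other neurons, summed to 1360 and 1460 CPM in those 2 and to 341 to 486 CPM in the other 9. The granule cell gene Gabra6 was at 84.2 and 59.0 CPM in those 2 and between 0.0186 and 4.41 CPM in the rest. A list of 12 caudal Hox genes, which mark spinal cord and trunk tissue, summed to 395 to 615 CPM in these libraries, and 6 motor neuron genes to 217 to 597 CPM. Xist, the marker of female mice, was at 464 and 598 CPM in control 1 and 2, at 28.4, 459 and 469 CPM in DKO, and at 0.344 to 1.39 CPM in control 3, NFKO and AnkGKO. The part that tissue make-up and sex play in the values below was not tested beyond the fits with Xist or with granule cell genes as a covariate, and in bulk RNA fewer cells of a type and less RNA per cell cannot be told apart.

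Thy1 was more abundant in every knockout library than in any control library. The 3 controls had 703.2, 689.3 and 729.7 CPM. The NFKO libraries had 1726, 1371 and 1787 CPM, the AnkGKO libraries 1901 and 1749 CPM, and the DKO libraries 1685, 1783 and 1743 CPM. The lowest knockout library, NFKO 2, still lay well above the highest control, and the controls were tightly grouped. The control mean was 707 ± 20.5 CPM (SD, n = 3), beside 1628 ± 224 (SD, n = 3) for NFKO, 1825 ± 108 (SD, n = 2) for AnkGKO and 1737 ± 49.1 (SD, n = 3) for DKO. In these means Thy1 moved from rank 134 among the 17557 genes tested in control to rank 29, 26 and 32 in NFKO, AnkGKO and DKO.

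**Figure D1:**
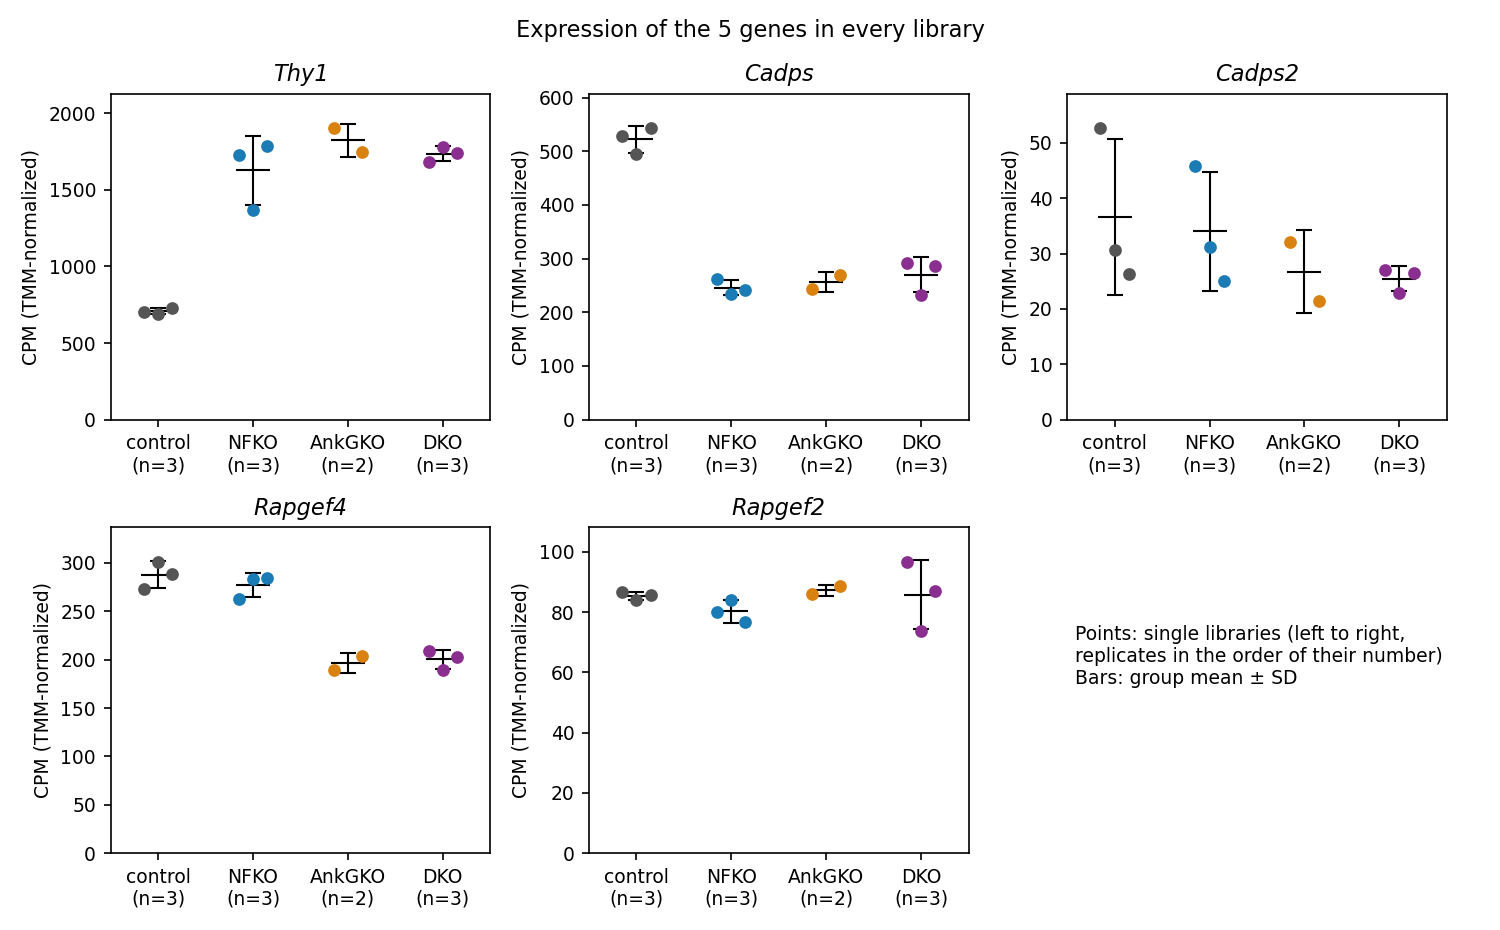
TMM-normalized CPM of Thy1, Cadps, Cadps2, Rapgef4 and Rapgef2 (vertical axes from 0) in the control, NFKO, AnkGKO and DKO libraries; points are single libraries and bars are group means ± SD. Thy1 separates the controls (689.3 to 729.7) from the knockouts (1371 to 1901), Cadps separates them in the other direction, and Rapgef4 separates AnkGKO and DKO (189.4 to 208.9) from control and NFKO (262.8 to 301).

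For Thy1 the log2 fold change from the controls came to 1.20 (SE 0.0915) with NFKO, 1.37 (SE 0.0996) with AnkGKO and 1.30 (SE 0.0917) with DKO. As ratios these are 2.30, 2.58 and 2.46 times the control level. Over the equally weighted 3 knockouts the mean was 1.29 (SE 0.081). Each of these used the same 3 control libraries, so the 3 values are not independent of one another. Among the 13910 genes with a mean of at least 1 CPM, Thy1 ranked 126th from the top in NFKO, 28th in AnkGKO and 49th in DKO by fold change.

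Cadps was less abundant in every knockout library than in any control. The controls had 528.8, 494.4 and 542.4 CPM. The NFKO libraries had 261.7, 234.1 and 241.3 CPM, the AnkGKO libraries 243.6 and 270.2 CPM, and the DKO libraries 291.9, 232.3 and 286.4 CPM. No knockout library came near the lowest control, and the 3 knockouts overlapped one another. The control mean of 522 ± 24.7 CPM (SD, n = 3) compares with 246 ± 14.3 (SD, n = 3) for NFKO, 257 ± 18.8 (SD, n = 2) for AnkGKO and 270 ± 32.9 (SD, n = 3) for DKO. The log2 fold change of Cadps from the controls was -1.09 for NFKO (SE 0.0897), -1.02 for AnkGKO (SE 0.102) and -0.95 for DKO (SE 0.0895), so that the control level was 2.12, 2.03 and 1.93 times that of the knockouts. By fold change Cadps ranked 28th from the bottom in NFKO, 90th in AnkGKO and 61st in DKO among the same 13910 genes.

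Libraries without overlap in the direction of Thy1, all 8 knockouts above all 3 controls, were found for 0.632% of genes, and in the direction of Cadps for 0.496%. Because these genes were picked on their differences from control, nothing is read from this.

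Thy1 and Cadps were then compared between the single and double knockouts. NFKO minus AnkGKO was -0.16 on the log2 scale for Thy1 (95% interval -0.384 to 0.055; adjusted p = 0.784, edgeR quasi-likelihood test) and -0.06 for Cadps (-0.281 to 0.152; adjusted p = 0.947). DKO minus NFKO was 0.09 for Thy1 (-0.103 to 0.291; adjusted p = 0.642) and 0.14 for Cadps (-0.057 to 0.331; adjusted p = 0.472). DKO minus AnkGKO was -0.07 for Thy1 (-0.291 to 0.149; adjusted p = 0.884) and 0.07 for Cadps (-0.144 to 0.29; adjusted p = 0.877). A difference between knockouts was thus not detected for either gene, and these intervals do not reach 0.6, the log2 fold change required for a call here. In order of level Thy1 ran control, NFKO, DKO and AnkGKO, and Cadps ran NFKO, AnkGKO, DKO and control, with no neighbouring knockouts differing beyond their spread.

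Where the log2 changes of the single knockouts are added and set against the double knockout, the value DKO - NFKO - AnkGKO + control is 0 if they add up. It was -1.27 (SE 0.135) for Thy1 and 1.16 (SE 0.135) for Cadps, each close in size to 1 single-knockout change. For Rapgef4 it was 0.08 (SE 0.0967), for Cadps2 0.03 (SE 0.46) and for Rapgef2 0.07 (SE 0.127). These values contain the control level on which the genes were picked and carry no test.

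Rapgef4 divided the libraries in another way. The controls had 273, 301 and 288.8 CPM, and the NFKO libraries had 262.8, 283.5 and 284.9 CPM. The AnkGKO libraries had 189.4 and 203.6 CPM, and the DKO libraries had 208.9, 189.5 and 202.3 CPM. NFKO overlapped the controls, whereas the 5 libraries with the floxed Ank3 alleles and Cre lay below the 6 others without overlap, an arrangement that 0.473% of all genes showed in this direction. Rapgef4 was also picked on differences from control in these libraries, so nothing is read from this share. Controls averaged 288 ± 14 CPM (SD, n = 3) and NFKO 277 ± 12.4 (SD, n = 3), whereas AnkGKO averaged 197 ± 9.99 (SD, n = 2) and DKO 200.2 ± 9.86 (SD, n = 3). The log2 fold change from the controls was -0.05 for NFKO (SE 0.0643), -0.55 for AnkGKO (SE 0.0731) and -0.52 for DKO (SE 0.0646). The control level was thus 1.04, 1.46 and 1.44 times that of the knockouts, and no knockout reached the 0.6 fold-change threshold.

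The difference in Rapgef4 between NFKO and the knockouts of Ank3 does not contain the control level and was tested. Rapgef4 was picked on differences that hold the same knockout values, so the p-values below are not independent of that choice. The controls also share in the spread of the fit. Rapgef4 was higher in NFKO than in AnkGKO by 0.50 on the log2 scale (SE 0.073; 95% interval 0.336 to 0.655; adjusted p = 0.0114, edgeR quasi-likelihood test), and all 3 NFKO libraries lay above both AnkGKO libraries. It was lower in DKO than in NFKO by -0.47 (SE 0.0645; -0.609 to -0.328; adjusted p = 0.00557), in all 3 libraries. DKO and AnkGKO differed by 0.03 (SE 0.0721; -0.13 to 0.185; adjusted p = 0.95). An adjusted p-value under 0.05 was reached by 0.496% of all genes between NFKO and AnkGKO, by 0.889% between DKO and NFKO and by 0.199% between DKO and AnkGKO; both differences of Rapgef4 are smaller than the fold-change threshold of 0.6. The order of levels was AnkGKO, DKO, NFKO and control, with the first 2 and the last 2 overlapping.

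The NFKO to AnkGKO difference rests on few libraries. With only those 5 libraries in the fit it was 0.50 (adjusted p = 0.0598), and the adjusted p was 0.145 without AnkGKO 1, 0.0735 without AnkGKO 2 and 0.0555 without NFKO 3, with a difference of 0.44 to 0.55 across the fits that left out a library. NFKO and AnkGKO were alike in Xist, but all 3 DKO libraries had more Xist than any NFKO library, and with Xist as a covariate the DKO to NFKO difference was -0.45 (SE 0.0994; adjusted p = 0.163). Astrocyte marker genes summed to 2350 to 2850 CPM in NFKO, 3520 to 4320 in AnkGKO and 2990 to 4000 in DKO, and pan-neuronal genes to 6110 to 6720, 5990 to 6540 and 6750 to 7050 CPM. Their part in the Rapgef4 difference was not tested.

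**Figure D2:**
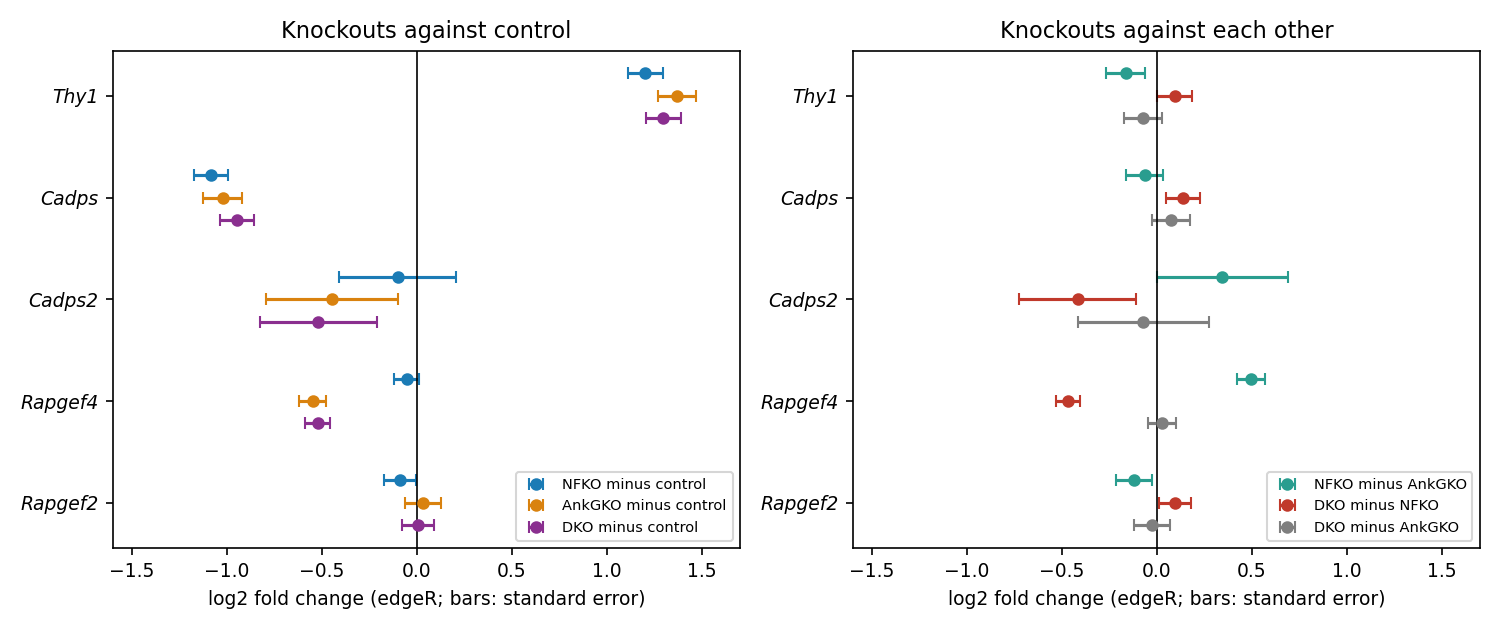
Log2 fold changes of the 5 genes (horizontal axis, from the edgeR fit; bars are standard errors) for each knockout against control (left) and for the knockouts against each other (right). Thy1 and Cadps are displaced in each knockout and near 0 between knockouts, while Rapgef4 is near 0 in NFKO and in DKO minus AnkGKO and displaced by about 0.50 and -0.47 in the other knockout pairs.

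Cadps2 did not share the pattern of Cadps. The controls had 52.61, 30.64 and 26.38 CPM and NFKO 45.85, 31.2 and 24.99 CPM. AnkGKO had 32.04 and 21.48 CPM, and DKO had 27.06, 22.91 and 26.43 CPM. Control 1 and NFKO 1 stood above the rest, and the remaining 9 libraries of the 4 groups overlapped. Controls averaged 36.5 ± 14.1 CPM (SD, n = 3), NFKO 34 ± 10.7 (SD, n = 3), AnkGKO 26.8 ± 7.47 (SD, n = 2) and DKO 25.5 ± 2.24 (SD, n = 3). Relative to control the fitted log2 fold changes were -0.10 (SE 0.306), -0.45 (SE 0.347) and -0.52 (SE 0.308) in NFKO, AnkGKO and DKO. These rest largely on control 1: without it they were 0.25 (SE 0.253), -0.09 (SE 0.277) and -0.16 (SE 0.252).

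The 2 libraries high in Cadps2 were also those high in granule cell genes. The 9 granule cell genes summed to 811 CPM in control 1 and 691 CPM in NFKO 1, and to 126 to 211 CPM in the other 9 libraries. With that sum as a covariate, a fit added after the data had been seen, the log2 fold change of Cadps2 was 0.01 (SE 0.13) in AnkGKO and -0.05 (SE 0.12) in DKO. Between knockouts the differences were 0.35 for NFKO minus AnkGKO (95% interval -0.445 to 1.135; adjusted p = 0.899, edgeR quasi-likelihood test), -0.42 for DKO minus NFKO (-1.119 to 0.285; adjusted p = 0.543) and -0.07 for DKO minus AnkGKO (-0.857 to 0.714; adjusted p = 0.973). Each of these intervals holds differences of more than 0.6 in size.

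For Rapgef2 no difference between knockouts was detected. The controls had 86.51, 83.99 and 85.81 CPM, NFKO 80.09, 84.07 and 76.53 CPM, AnkGKO 85.93 and 88.5 CPM, and DKO 96.62, 73.65 and 87.1 CPM. The highest and the lowest library were both DKO, so that this group enclosed the other 3. The log2 fold change from the controls was -0.09 for NFKO (SE 0.085), 0.03 for AnkGKO (SE 0.0949) and 0.01 for DKO (SE 0.085). Between knockouts it was -0.12 for NFKO minus AnkGKO (95% interval -0.327 to 0.086; adjusted p = 0.857, edgeR quasi-likelihood test), 0.10 for DKO minus NFKO (-0.089 to 0.282; adjusted p = 0.605) and -0.02 for DKO minus AnkGKO (-0.231 to 0.183; adjusted p = 0.965).

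Per kilobase of exon, Thy1 stood highest of the 5 in every group, at 157.8 CPM per kb in control and 363.1 to 407.1 in the knockouts. Cadps was at 30.08 CPM per kb in control, just above Rapgef4 at 25.56, and at 14.16, 14.81 and 15.58 in NFKO, AnkGKO and DKO, below Rapgef4 at 24.62, 17.47 and 17.8. Rapgef2 was at 5.149 to 5.597 CPM per kb and Cadps2 at 2.46 to 3.53. On this scale the order of Cadps and Rapgef4 was turned in the knockouts. In CPM it was turned in NFKO (246 against 277), while Cadps stayed above Rapgef4 in AnkGKO (257 against 197) and DKO (270 against 200). The spread of single libraries around their group mean was 0.12 on the log2 scale for Thy1 and for Cadps, 0.0698 for Rapgef4, 0.113 for Rapgef2 and 0.403 for Cadps2.

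Thy1 is also a T cell gene. The 8 T cell markers found in the table summed to 2.05 to 2.48 CPM in control and 2.29 to 3.36 CPM in the knockouts, beside the 689.3 to 1901 CPM of Thy1 in the same libraries. The 6 fibroblast markers summed to 165 to 338 CPM in control, 302 to 1140 in NFKO, 167 to 281 in AnkGKO and 140 to 402 in DKO. NFKO 2, with the highest fibroblast sum, had the lowest Thy1 of the knockouts. Pan-neuronal markers summed to 6560 to 7180 CPM in control and 5990 to 7050 CPM in the knockouts. Microglia markers summed to 194 to 236 CPM in control, 226 to 239 in NFKO, 254 to 257 in AnkGKO and 216 to 284 in DKO. The part of any of these cell types in the Thy1 values was not tested.

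By edgeR, no pathway gene around the 5 was called in any knockout against control, a call being an adjusted p-value under 0.05 together with a log2 fold change of 0.6 or more in size. Of all genes tested, 0.365% were called in NFKO, 0.165% in AnkGKO and 0.0228% in DKO, and 7.69%, 5.39% and 7.77% had an unadjusted p under 0.05. Of 36 genes that dock and prime vesicles, the machinery Cadps works with, none passed the test in NFKO, AnkGKO or DKO by edgeR or by DESeq2, with 1, 5 and 6 (2.78%, 13.9% and 16.7%) at an unadjusted p under 0.05. Their median log2 fold change was -0.09 in NFKO, -0.07 in AnkGKO and -0.045 in DKO, beside medians of about 0 over all genes tested (-0.005, -0.0051 and -0.0006). Cplx2, a complexin that clamps and assists the fusion machinery, was at 394 ± 24.3 CPM (SD, n = 3) in control and 317 ± 14.3 (SD, n = 2) in AnkGKO (log2 fold change -0.32, adjusted p = 0.331, edgeR). Rims1, an active zone scaffold, was at 66.7 ± 4.46 CPM in control and 51.4 ± 6.29 in DKO (SD, n = 3 each; -0.37, adjusted p = 0.562, edgeR).

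Of 19 measured genes for dense-core vesicle cargo and its processing, none was called by either tool, with 2, 0 and 2 (10.5%, 0% and 10.5%) at an unadjusted p under 0.05 and medians of 0.00, 0.03 and 0.07. Vgf, a neuropeptide precursor, was at 140 ± 15.2 CPM in control and 207 ± 27.2 in DKO (SD, n = 3 each; log2 fold change 0.56, adjusted p = 0.427, edgeR). Ptprn, a membrane protein of dense-core vesicles, was at 343 ± 5.39 in control and 409 ± 10.9 in DKO (0.25, adjusted p = 0.427, edgeR). It was higher in DKO than in NFKO (0.28, adjusted p = 0.0472, edgeR), by less than the 0.6 required for a call.

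Of 27 measured Rap exchange factors, Rap GTPases and their partners, none was called by either tool, with 2, 5 and 4 (7.41%, 18.5% and 14.8%) at an unadjusted p under 0.05 and medians of -0.02, 0.01 and -0.06. Rapgef3, the other Epac, averaged 56.9 ± 4.71 CPM in control, 45.8 ± 8.66 in NFKO and 60.4 ± 11 in DKO (SD, n = 3 each) and 58.9 ± 3.39 in AnkGKO (SD, n = 2). Its lowest mean, in NFKO, did not pass against control (log2 fold change -0.31, adjusted p = 0.686, edgeR) or against AnkGKO (-0.36, adjusted p = 0.654, edgeR). It was singled out after its values had been seen. Apbb1ip, an adaptor that binds Rap1, had a log2 fold change of 0.55 in DKO (adjusted p = 0.528, edgeR), and Magi2, a synaptic scaffold, of 0.26 in AnkGKO (adjusted p = 0.337, edgeR). Of 34 genes that make, read or break down cyclic AMP, none was called by either tool, with 3, 1 and 4 (8.82%, 2.94% and 11.8%) at an unadjusted p under 0.05 and medians of -0.01, 0.02 and -0.02. Among them Creb1, a transcription factor activated by cyclic AMP signaling, had -0.20 in DKO (adjusted p = 0.576, edgeR), and Gnas, the stimulatory G protein subunit, -0.17 in NFKO (adjusted p = 0.507, edgeR).

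Of 34 genes for Thy1 partners and other lipid-anchored or adhesion proteins of neurons, none was called by edgeR, with 3, 3 and 5 (8.82%, 8.82% and 14.7%) at an unadjusted p under 0.05 and medians of -0.01, 0.09 and 0.03. Itgax, an integrin subunit of myeloid cells, was at 0.511 ± 0.378 CPM in control and 2.74 ± 0.619 CPM in AnkGKO (log2 fold change 2.43, adjusted p = 0.124, edgeR) and was called by DESeq2 (adjusted p = 0.000366). Sdc4, a heparan sulfate proteoglycan that can bind Thy1, averaged 122 ± 3.21 CPM in control, 101 ± 12.9 in NFKO and 145 ± 15.8 in DKO (SD, n = 3 each). It was higher in DKO than in NFKO (0.52, adjusted p = 0.0309, edgeR) and did not pass against control.

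**Figure D3:**
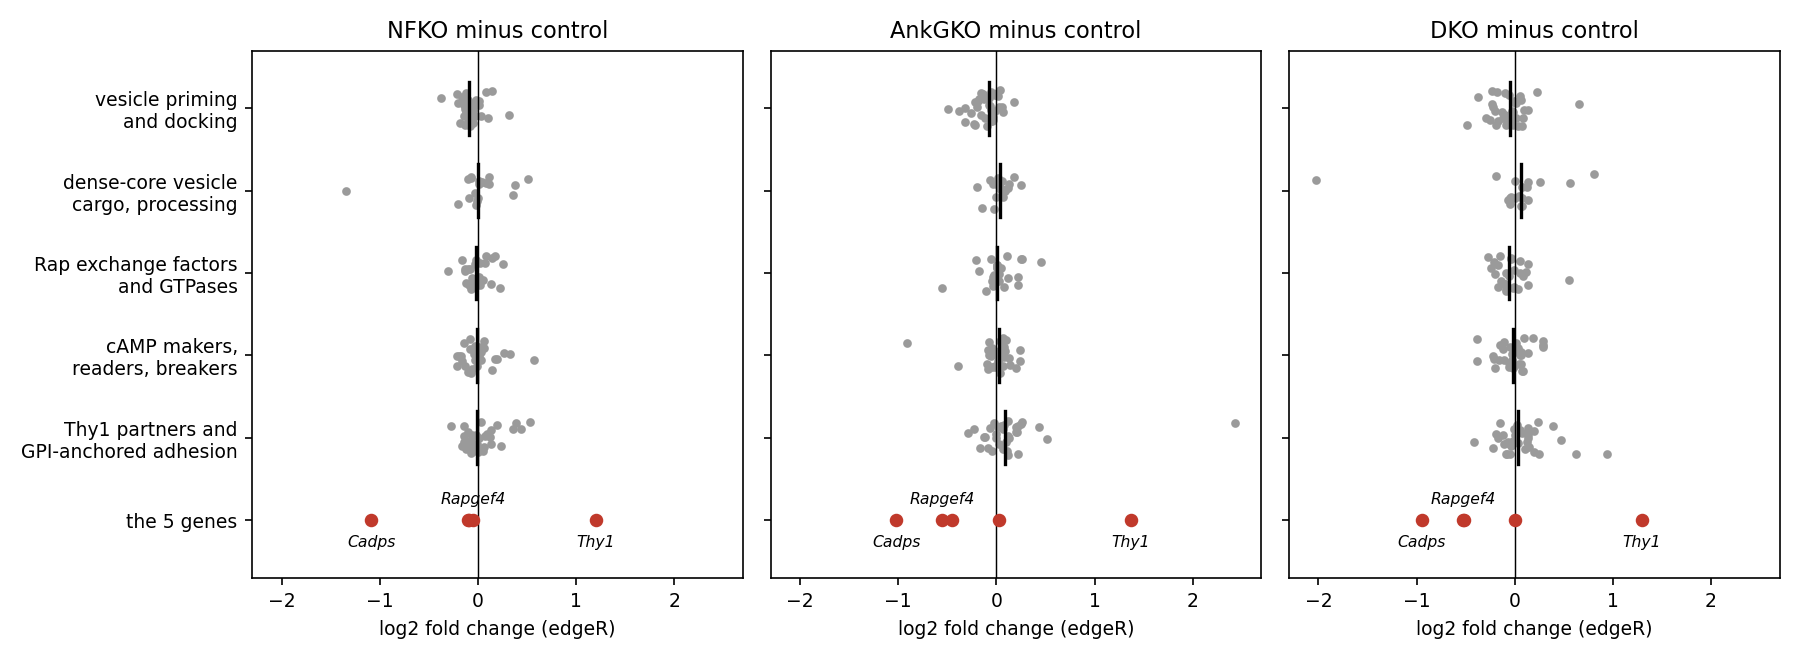
Log2 fold changes against control (horizontal axes, edgeR) in NFKO, AnkGKO and DKO for the genes of 5 pathway lists (grey points, with the list median as a black line; vertical scatter within a row is only for legibility) and for the 5 genes (red). The list medians lie between -0.09 and 0.09, while Thy1 lies at 1.20, 1.37 and 1.30 and Cadps at -1.09, -1.02 and -0.95.

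Few genes next to the 5 on the chromosomes were called. Within 1 Mb of Thy1, 38 genes were tested and none was called by edgeR in any knockout against control, with 9, 0 and 3 (23.7%, 0% and 7.89%, beside 7.69%, 5.39% and 7.77% of all genes) at an unadjusted p under 0.05 in NFKO, AnkGKO and DKO. The smallest p-values there belonged to Bcl9l, a Wnt pathway coactivator (0.26 in NFKO, adjusted p = 0.303, edgeR), and Trappc4, a vesicle tethering subunit (0.31 in DKO, adjusted p = 0.562, edgeR). Cbl, a ubiquitin ligase 94.4 kb from Thy1, was called in NFKO by DESeq2 (0.63, adjusted p = 0.0277) and not by edgeR (adjusted p = 0.352), and is named for that call. None of the 4 genes tested near Cadps, 10 near Cadps2 and 15 near Rapgef4 was called by edgeR or DESeq2, with no gene near Cadps at an unadjusted p under 0.05, with 2, 0 and 3 (20%, 0% and 30%) near Cadps2 and with 1, 1 and 0 (6.67%, 6.67% and 0%) near Rapgef4. Near Cadps, the receptor phosphatase Ptprg was at 95.8 ± 6.78 CPM in control and 112 ± 7.9 in AnkGKO (adjusted p = 0.948, edgeR), and Sntn was below the floor in every group. Near Cadps2, the Wnt ligand Wnt16 averaged 0.778 ± 0.237 CPM in control and 1.84 ± 0.568 in NFKO (adjusted p = 0.499, edgeR) and Iqub at 1.26 ± 0.129 in control and 0.762 ± 0.232 in DKO (adjusted p = 0.619, edgeR).

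Near Rapgef4, the laminin receptor subunit Itga6 averaged 40.0 ± 1.96 CPM for control, 47.7 ± 5.46 for NFKO, 53.4 ± 3.05 for AnkGKO and 39.5 ± 1.97 for DKO, a different order from that of Rapgef4 (AnkGKO log2 fold change 0.42, adjusted p = 0.169, edgeR). Dcaf17 was between 17.6 and 20.3 CPM in the group means. The nearest called gene on the chromosome of Rapgef4 was Cwc22, 5.62 Mb away, in AnkGKO. Near Rapgef2, 1 of 7 genes was called in NFKO, beside 0.365% of all genes, and none in the other knockouts. Tmem144, 524.2 kb away, rose in NFKO from 14.4 ± 1.22 to 29.3 ± 0.249 CPM (SD, n = 3 each; log2 fold change 1.02, adjusted p = 0.000377, edgeR) while Rapgef2 did not. Of the genes called in NFKO, 10 lay on this chromosome. In each knockout 1 of the 7 (14.3%) had an unadjusted p under 0.05.

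The genes most like Rapgef4 across the 11 libraries followed the same division between groups. Among 13909 genes with a mean of at least 1 CPM, Kif5a, a motor protein of neuronal axonal transport, had a Pearson r of 0.97 (Spearman rho 0.873) with Rapgef4. Ank3 itself had 0.97 (rho 0.745), Kif5b, another kinesin heavy chain, 0.915 (rho 0.791), and Ankrd34a 0.898 (rho 0.7). Kif5a was at 2630, 2760 and 2870 CPM in control, 2600, 2880 and 2850 in NFKO, 1710 and 2040 in AnkGKO, and 1990, 2020 and 1980 in DKO, again without overlap between the first 6 libraries and the other 5. Ank3 was at 353 to 375 CPM in control, 385 to 407 in NFKO, 156 and 200 in AnkGKO, and 160 to 185 in DKO. The lowest correlations with Rapgef4 were those of Sprr1a (r -0.946, rho -0.9), a gene known for its induction after axon injury, and of Wdr1 (r -0.946, rho -0.773), an actin regulator. Sprr1a had 0.0403 to 0.595 CPM in the control and NFKO libraries and at 2.29 to 7.20 CPM in AnkGKO and DKO. These values describe likeness over libraries that share their genotype groups, with the libraries in 2 clusters, and no test was made.

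**Figure D4:**
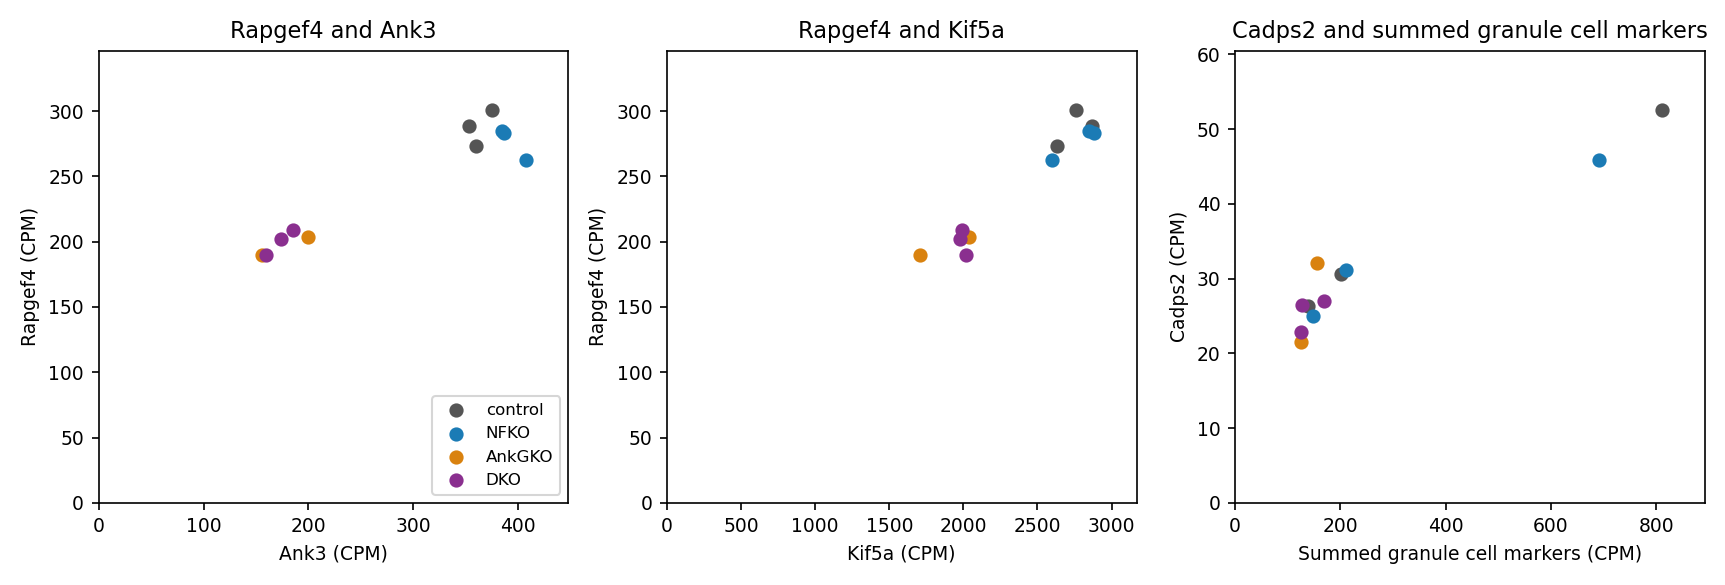
CPM of Rapgef4 against Ank3 (left) and Kif5a (middle), and of Cadps2 against the summed CPM of granule cell markers (right); each point is 1 of the 11 libraries, colored by genotype, and all axes start at 0. In the first 2 panels the 5 AnkGKO and DKO libraries form a lower cluster (Rapgef4 189.4 to 208.9) apart from control and NFKO, and in the last panel control 1 and NFKO 1 lie apart with 811 and 691 CPM of granule cell genes.

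Thy1 and Cadps were each other's most opposite gene by Pearson r (-0.946, rho -0.691). By rho, Csf2rb was more opposite to Cadps (-0.945) and Ccrn4l to Thy1 (-0.736). Both Thy1 and Cadps were picked on their differences from control in these libraries, so nothing is read from their r, and no test was made. Most like Thy1 were Entpd2, an enzyme that breaks down extracellular ATP (r 0.907, rho 0.873), Abi3 (0.898, rho 0.909), the estrogen receptor gene Esr1 (0.879, rho 0.7) and Dock2, a Rac activator of blood cells (0.879, rho 0.664). Their levels were low beside Thy1: Entpd2 was at 15.8 ± 0.936 CPM in control and 21.2 ± 0.44 in AnkGKO, and Abi3 at 3.75 ± 0.305 and 5.60 ± 0.0805. Apart from Cadps, Ccrn4l had the lowest r with Thy1, -0.887 (rho -0.736). Most like Cadps were Ccrn4l (0.919, rho 0.791), a deadenylase gene with a daily rhythm also called Nocturnin, Fam13a (0.878, rho 0.882), the oligodendrocyte gene Bcas1 (0.877, rho 0.8) and the sodium pump subunit Atp1b1 (0.858, rho 0.9), and apart from Thy1 the lowest was Csf2rb, a cytokine receptor subunit (-0.929, rho -0.945). The log2 fold changes of Ccrn4l were -0.21, -0.21 and -0.16 in NFKO, AnkGKO and DKO and those of Bcas1 -0.38, -0.32 and -0.31, a fraction of those of Cadps in the same libraries.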

How the data were processed

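Members and gene lists were chosen with earlier results of these data known. After trimming with Trimmomatic 0.39 and alignment to GRCm39 with STAR 2.7.11a, as the submitters' processing notes and the paper give it, the authors deposited raw counts per gene for 22609 genes in 11 libraries. They also deposited a normalized signal table, in which each library's counts are scaled by its own size factor (0.815 to 1.16). All of its values above 0 (100%) came back as whole reads within 0.01 and equalled the raw counts, so a count test on it is the same test. The 5 summary lines of the count table were left out: reads without a gene were 9.23 to 10.4% and reads not aligned uniquely 32.5 to 34.3%. The labels describe single-end reads of 100 bases whereas the paper's methods describe paired-end reads, and the paper's methods give 3 AnkGKO mice where 2 libraries are labelled. The control genotype has no Cre in the series' design, but 1 passage of the paper writes it with Pcp2-Cre. All libraries carry the same batch label, and no pair held identical counts. The labels call the libraries biological replicates.

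Genes with at least 10 counts over the libraries were kept (17557) and fitted with edgeR 4.0.16 in R 4.3.3 (TMM, robust quasi-likelihood, 1 model over the 4 genotypes, Benjamini-Hochberg adjustment over all genes tested), which replaced DESeq2, the test of the paper, as the main test; DESeq2 1.42.0 with a local dispersion fit was an alternative. A call needed a log2 fold change of 0.6 or more in size besides an adjusted p-value under 0.05. CPM are TMM-normalized. Correlations used log2 CPM with a prior count of 2. Gene positions came from GENCODE vM39, where 18191 symbols matched directly, 2219 by an older symbol and 2199 not at all; promoter sequences came from RefSeq. No conversion between GRCm38.p6 and GRCm39 was made. Genes named beside the 5 are, of each list and each neighbourhood within 1 Mb, those called against control or otherwise the 2 with the smallest unadjusted p; Nfasc and Ank3; the 4 most and 2 least correlated genes of Thy1, Cadps and Rapgef4; and cell type markers.

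Replicate numbers from the labels were used as a block in an alternative fit. Deviations from the group mean correlated between control and NFKO libraries of equal number (r 0.175 to 0.363 in 3 pairs), whereas control and DKO (-0.093 to 0.19), NFKO and DKO (0.05 to 0.35) and the AnkGKO pairs did not meet a minimum of 0.1 throughout, and the labels do not say what a number stands for. Other alternatives were DESeq2's size factors, other count filters, only the libraries compared, Xist as a covariate and leaving out each library; the recovered counts and the covariate of granule cell genes were added after seeing the data.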

Additional observations from a re-analysis of the deposited data

Results flagged for a closer look

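The effect of Rapgef4 differed between knockouts. It was 0.50 higher on the log2 scale in NFKO than in AnkGKO (SE 0.073; adjusted p = 0.0114, edgeR quasi-likelihood test) and in DKO it differed from NFKO by -0.47 (SE 0.0645; adjusted p = 0.00557), with all 3 NFKO libraries above the 5 others. The knockout values in these tests were among those on which Rapgef4 was picked. No group had over 3 libraries, so single libraries were not screened for standing apart from their group.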

How the results depend on the processing

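Thy1 was 1.13 to 1.31 higher than control on the log2 scale in NFKO, 1.31 to 1.43 in AnkGKO and 1.27 to 1.32 in DKO under the 20 alternatives run, and Cadps lay between -1.18 and -0.85 in the 3 knockouts. The recovered counts, 1 of the 20, equal the raw counts and could not give another result than the main fit. Rapgef4 in NFKO minus AnkGKO kept its direction in the same 20 (adjusted p from 3.61e-09 to 0.145) but missed the threshold with only the libraries compared (0.497, adjusted p = 0.0598); without a library it was 0.444 to 0.545, missing without AnkGKO 1 or 2 or NFKO 3. In DKO minus NFKO it missed with Xist as a covariate (-0.448; adjusted p from 1.31e-10 to 0.163 over the alternatives). Values that had not passed, or that carry no test, changed sign or size, and these shifts include the following. With granule cell genes as a covariate, Cadps2 was -0.077 in NFKO minus AnkGKO and 0.02 in DKO minus NFKO, and against control it moved to 0.006 in AnkGKO and -0.052 in DKO. With the replicate block Cadps2 was 0.095 in DKO minus AnkGKO; the block changed no other direction among the differences between knockouts and moved none of them across the threshold. With Xist, Rapgef2 was 0.066 in DKO minus AnkGKO, and the value DKO - NFKO - AnkGKO + control was 1.371 for Cadps, -0.563 for Cadps2 and 0.224 for Rapgef2. Leaving out single libraries gave -0.137 to 0.008 for Cadps in NFKO minus AnkGKO (above 0 without AnkGKO 2), -0.016 to 0.159 for Thy1 in DKO minus NFKO (below 0 without NFKO 2) and, in DKO minus AnkGKO, -0.339 to 0.245 for Cadps2 (above 0 without AnkGKO 1), -0.024 to 0.072 for Rapgef4 (below 0 without AnkGKO 1 or DKO 1) and -0.117 to 0.077 for Rapgef2 (above 0 without DKO 2). The cause of these shifts was not tested. Among Thy1 partners in AnkGKO, DESeq2 called 1 gene, Itgax, and fits without a library called 0 to 1. Among neighbours of Thy1 in NFKO, DESeq2 called 1 and the fit with only the libraries compared called 1, and fits without a library called 0 to 1.

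Over all genes, DESeq2 called 159 in NFKO, 102 in AnkGKO and 44 in DKO against control where edgeR called 64, 29 and 4, and for the mean of the knockouts 55 against 9. Between knockouts DESeq2 called 199 (NFKO and AnkGKO), 418 (DKO and NFKO) and 99 (DKO and AnkGKO) where edgeR called 71, 108 and 30, and 314 against 93 for DKO - NFKO - AnkGKO + control. With Xist as a covariate the counts were 31 in NFKO, 13 in AnkGKO, 42 for DKO minus NFKO, 10 for DKO minus AnkGKO and 19 for the last value, and 11 for DKO minus AnkGKO with only the libraries compared. Without single libraries edgeR's counts ran from 40 (without NFKO 1) to 71 in NFKO, 18 (without AnkGKO 1) to 35 in AnkGKO and 4 to 8 (without DKO 2) in DKO. They ran from 28 to 76 for NFKO minus AnkGKO (37, 35, 28 and 30 without NFKO 1, NFKO 3, AnkGKO 1 and AnkGKO 2), 68 (without NFKO 1) to 162 for DKO minus NFKO, 12 to 40 for DKO minus AnkGKO (15, 14, 18 and 12 without AnkGKO 1, AnkGKO 2, DKO 1 and DKO 3) and 52 to 102 for the last value (58, 52 and 61 without control 1, AnkGKO 1 and DKO 3). With 2 AnkGKO libraries, a fit without either assumes that the other varies like the rest.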
